A study of Mus musculus with 26 samples.

Results

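Solute carriers are membrane proteins that move ions, amino acids, sugars, vitamins, metals and metabolites, and their genes carry symbols that begin with Slc and a family number. The genes described here are those of the OPC and OL tables whose symbol has this form, without 10 carriers of glucose, lactate, glutamate and amino acids that were set aside (Slc2a1, Slc16a1, Slc1a2, Slc1a3, Slc1a4, Slc1a5, Slc3a2, Slc7a5, Slc7a11 and Slc38a2). Of 10104 transcripts listed for either cell type, 165 were members. 141 were listed for oligodendrocyte progenitor cells (OPCs), 162 for oligodendrocytes (OLs) and 138 for both. By their known place in the cell, 62 members were plasma membrane carriers, 54 were carriers of organelles, 33 were mitochondrial carriers of the Slc25 family and 2 were other mitochondrial carriers. The place of 10 members was taken as unclear. 4 members match the symbol but are not carriers, namely the scaffolds Slc9a3r1 and Slc9a3r2 and the genes Slc7a6os and Slc4a1ap, and they were kept and counted.

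The study followed the decay of labelled RNA in mouse OPCs of the 129S/SvEv strain, which had been derived from epiblast stem cells and were grown with bFGF and PDGFA, and in OLs made from them in medium with thyroid hormone (T3), noggin, IGF-1, cyclic AMP and NT3. OPCs, and OLs that had differentiated for 40 h, were given 5-ethynyl uridine (5-EU), a uridine analogue to which biotin can be coupled, for 24 h, and the analogue was then washed out and replaced by uridine. Labelled RNA was pulled down and sequenced at 0, 1, 2, 4 and 6 h of this chase in 3 OPC replicates and 2 OL replicates. The cells are thus young OLs from a culture system of a single strain, and an OPC control without biotin was not analysed here. The values are FPKM, the read count of a transcript set against its length and the size of the library, which gives a level per length but not the reads behind it, so the depth is unknown and no counting error can be given. The authors scaled the libraries to the reads of labelled spike-in RNA, with 1 factor for all transcripts of a library, so an error in that factor moves every carrier of the library together. The methods describe this scaling for each time point, but the 0 h values keep the form of unscaled FPKM, and whether they were scaled too is uncertain, which bears on every slope and percentage of the 0 h level given here.

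The markers of the labelled cell types were checked before the carriers. All 8 OL markers looked for were listed in OLs, with a summed level of 2790 to 6064 FPKM at 0 h against 37.6 to 55.1 FPKM in OPCs, and OL replicate 1 had the higher sum. Of 6 OPC markers, 2 were lower in OLs, among them Ccnd1, but Pdgfra and Gpr17, a receptor known from cells that have begun to differentiate, were higher. Of 6 astrocyte markers, 5 were listed, and their summed level was 262 to 330 FPKM in the OPC replicates, 254 FPKM in OL replicate 1 and 483 FPKM in OL replicate 2. Gja1, which encodes connexin 43, carried most of that difference, at 40.1 FPKM in OL replicate 1 and 188 FPKM in OL replicate 2. Gfap was at 6.86 and 8.12 FPKM and Aldh1l1 at 1.72 and 2.44 FPKM in OL replicates 1 and 2, and Aqp4 was not listed. Aldoc and Fgfr3 were also listed in OPCs, at 177 to 213 FPKM and 45.2 to 75.7 FPKM. The sum is therefore a weak measure of astrocytes. 2 of 5 neuron markers were listed, at a summed 13.2 to 27.7 FPKM. None of the 4 microglial, 3 endothelial and 2 pluripotency markers was listed. In a culture, fewer cells of a type and less RNA per cell cannot be told apart.

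A plasma membrane carrier sets what a cell takes up or puts out, and in OLs the making of myelin is known to draw on choline, fatty acids, creatine, chloride and iron. Organelle carriers fill lysosomes, the Golgi apparatus and vesicles, where nucleotide sugars are needed for glycosylation and zinc is stored. The Slc25 proteins share a fold of repeated units in the inner mitochondrial membrane, are made in the cytosol without an import presequence in most cases, and exchange ATP, ADP, phosphate, citrate, amino acids and cofactors with the matrix.

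An AU-rich element in the 3′ untranslated region (3′ UTR) is a known sequence sign of mRNAs that can be degraded quickly, so the heptamer TATTTAT was looked for on the transcript strand of the annotated 3′ UTRs in GENCODE M21 (GRCm38). It was present in 58 of 163 members with a 3′ UTR, or 35.6%, and in 30.1% of all 9968 listed transcripts with a 3′ UTR. The median 3′ UTR was 1499 bases in the members and 1115 bases over all transcripts, and a longer 3′ UTR has more chances to hold the heptamer. The windows below, of 29 bases with the heptamer in capitals, come from carriers that the results return to, and they show that the heptamer occurred in short-lived and long-lived members.
Slc25a25, a site near the 3′ end: tgcttggagccTATTTATtttgtatttat
Slc25a25, a site that begins 11 bases further on: tatttattttgTATTTATttgaacagagt
Slc30a1: ttttagagaatTATTTATttctttacaat
Slc11a2: gtatcgatatgTATTTATgtgaacccaaa
Slc30a5: ataaaattctaTATTTATgaattttctgt
Slc1a1: atatgtgtgtaTATTTATtattttcatgt
Slc25a4: gaagtattttgTATTTATtttacatttag
The Slc25a25 windows are on the minus strand at chr2:32415109-32415137 and chr2:32415098-32415126. Those of Slc30a1 and Slc1a1 are on the plus strand at chr1:191911739-191911767 and chr19:28912568-28912596. Those of Slc11a2, Slc30a5 and Slc25a4 are on the minus strand at chr15:100388812-100388840, chr13:100802837-100802865 and chr8:46207282-46207310. Members with the heptamer had a median half-life of 2.15, 1.96 and 2.50 h in OPC replicates 1, 2 and 3, and members without it of 3.10, 2.49 and 3.45 h. In OL replicates 1 and 2 these medians were 3.84 and 3.76 h with the heptamer and 6 and 5.32 h without it. Over all transcripts the medians were also lower with the heptamer, at 1.96 to 2.36 h against 2.30 to 3.12 h in the OPC replicates, so this order was not particular to carriers. The median 3′ UTR was 2169 bases in members with the heptamer and 1192 bases in those without, and the part of UTR length in the difference was not tested.

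Labelled RNA at 0 h, after the 24 h of labelling, is the level from which each decay starts, and it was compared between OLs and OPCs on log2(FPKM + 1), a scale that understates the change of low genes. The largest rises in OLs included the glutamate transporter Slc1a1, the choline transporter Slc44a1, the taurine transporter Slc6a6, the creatine transporter Slc6a8 and the chloride cotransporter Slc12a2. The largest falls included the nucleoside transporter Slc29a1, the urate carrier Slc2a9 and the dicarboxylate carrier Slc25a10. Among the 138 members tested, 21 were higher and 22 were lower in OLs at an adjusted p under 0.05 (limma, Benjamini-Hochberg over 8177 transcripts). Over all transcripts 14.1% were higher and 17.5% lower, so the members' shares were close to this background. The median difference was 0.07 log2 units in the members and -0.01 over all transcripts. In 47 members both OL replicates were above every OPC replicate and in 38 both were below, where the shares over all transcripts were 28% and 31.4%. Without OPC replicate 3 the number of members called fell from 43 to 24, all among the 43. Over all transcripts the shares in that fit also fell, to 8.30% higher and 9.38% lower. Without OL replicate 1 the median difference was 0.09 log2 units in the members and 0.04 over all transcripts. Fits that leave out an OL replicate hold a single OL sample, which is taken to vary as the OPC replicates do. Of the 43, 16 were called in each of the 5 fits without a replicate, among them Slc1a1, Slc44a1, Slc6a6, Slc6a8, Slc22a23, Slc25a33 and Slc45a4, which were higher in OLs, and Slc29a1, Slc2a9, Slc15a2, Slc7a1, Slc25a5, Slc25a10, Slc25a25 and Slc35c2, which were lower. The other calls named below were lost without OL replicate 1, and in part without another replicate.

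Slc1a1, a glutamate and cysteine transporter of the plasma membrane (chromosome 19, 28835074 to 28913960, plus strand, 12 exons), had the largest difference of the members. Its labelled RNA was 2.19, 1.95 and 1.85 FPKM in OPC replicates 1, 2 and 3 and 196 and 121 FPKM in OL replicates 1 and 2. The OPC values lay just over the 1 FPKM that the authors required, and the difference was 5.69 ± 0.28 log2 units (SE; adjusted p = 6.83e-06, limma). Slc44a1, a choline transporter (chromosome 4, 53440413 to 53622478, plus strand, 16 exons), had 23.1, 20.7 and 16.4 FPKM in the OPC replicates and 299 and 172 FPKM in the OL replicates. Its difference was 3.45 ± 0.26 log2 units (adjusted p = 3.51e-05, limma), and in OLs it was second among the members in mean level, after Slc25a5. In both genes OL replicate 1, which also had the higher sum of OL markers, was the higher of the pair.

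The taurine transporter Slc6a6 had 3.89, 5.79 and 3.87 FPKM in the OPC replicates and 29.2 and 23.6 FPKM in the OL replicates, 2.32 ± 0.29 log2 units higher (adjusted p = 0.000412, limma). The creatine transporter Slc6a8 had 9.93, 6.28 and 6.49 FPKM against 34.8 and 26.1 FPKM (1.89 ± 0.29, adjusted p = 0.00135, limma). Both belong to the family of sodium- and chloride-coupled transporters that also holds the GABA transporter Slc6a11, which went the other way. Slc6a11 had 186, 148 and 206 FPKM against 90 and 118 FPKM (a difference of -0.78 ± 0.21, adjusted p = 0.0198, limma). The family thus did not move as a unit.

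Slc12a2, the sodium-potassium-chloride cotransporter that loads cells with chloride, had 29.3, 59.9 and 33.5 FPKM in the OPC replicates and 161 and 107 FPKM in the OL replicates. It was 1.73 ± 0.31 log2 units higher in OLs (adjusted p = 0.00291, limma). Without OL replicate 1 the difference was 1.43 and was not called. In the group of bicarbonate, proton and chloride carriers 3 of 15 members were higher in OLs and 0 were lower, beside 14.1% and 17.5% of all transcripts. The others were Slc12a9, an orphan member of that family, with 19.8 to 26.7 FPKM in OPCs and 44.9 to 54.7 FPKM in OLs, and the potassium-chloride cotransporter Slc12a4 with 32.2 to 38.8 FPKM and 51.2 to 54.1 FPKM. Of 7 kinases and adaptors that act on cation-chloride cotransporters, 5 were listed for both cell types and 1 was higher in OLs, a count too small to set against that background. That was Stk39, with 2.70 to 5.09 FPKM in the OPC replicates and 10.4 to 15.1 FPKM in the OL replicates (1.49 ± 0.32 log2 units, adjusted p = 0.00814, limma).

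Slc22a23, an orphan of the organic ion transporter family, had 10.1 to 14.9 FPKM in the OPC replicates and 45.9 to 49.9 FPKM in the OL replicates (1.91 ± 0.24 log2 units, adjusted p = 0.000426, limma). Slc45a4, placed in a family of proton-coupled sugar carriers, had 14.4 to 20.5 FPKM against 45.9 to 59.3 FPKM (1.61 ± 0.24, adjusted p = 0.00113, limma). For both, the OL replicates lay close together and well above the OPC replicates. In the sugar group 3 of 6 members were higher and 1 was lower, beside 14.1% and 17.5% of all transcripts, a count too small to set against that background. Slc2a8, an intracellular hexose carrier, and Slc2a12 were the other members that were higher, at 7.45 to 8.58 FPKM and 6.5 to 7.19 FPKM in OLs and 2.67 to 4.12 FPKM and 2.04 to 3.92 FPKM in OPCs. Slc2a8 was not called without OPC replicate 3, and Slc2a12 was not called without OPC replicate 1 or OPC replicate 3.

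Slc29a1, the equilibrative nucleoside transporter (chromosome 17, 45585203 to 45595570, minus strand, 13 exons), had the largest fall. Its labelled RNA was 65.0, 35.8 and 49.8 FPKM in the OPC replicates and 3.24 and 3.04 FPKM in the OL replicates. The means of 50.2 ± 14.6 FPKM (SD, n = 3) and 3.14 ± 0.142 FPKM (SD, n = 2) were 16.0-fold apart, and the difference was -3.59 ± 0.29 log2 units (adjusted p = 4.59e-05, limma). The other nucleoside carriers, Slc29a3 and Slc29a4, were at 1.13 to 6.06 FPKM in all replicates and were not called. Since uridine and its analogues are known substrates of nucleoside carriers and the label was a uridine analogue, this carrier also bears on how the label enters the cells, which was not tested.

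Slc2a9, a urate carrier, had 10.7 to 16.0 FPKM in OPCs and 1.59 to 2.00 FPKM in OLs (-2.36 ± 0.29, adjusted p = 0.00041, limma). Slc15a2, a peptide transporter, had 14.9 to 19.1 FPKM against 3.58 to 5.86 FPKM (-1.70 ± 0.29, adjusted p = 0.00242, limma). In Slc29a1, Slc2a9 and Slc15a2 the highest OL replicate was under the lowest OPC replicate by more than a factor of 2.

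**Figure D1:**
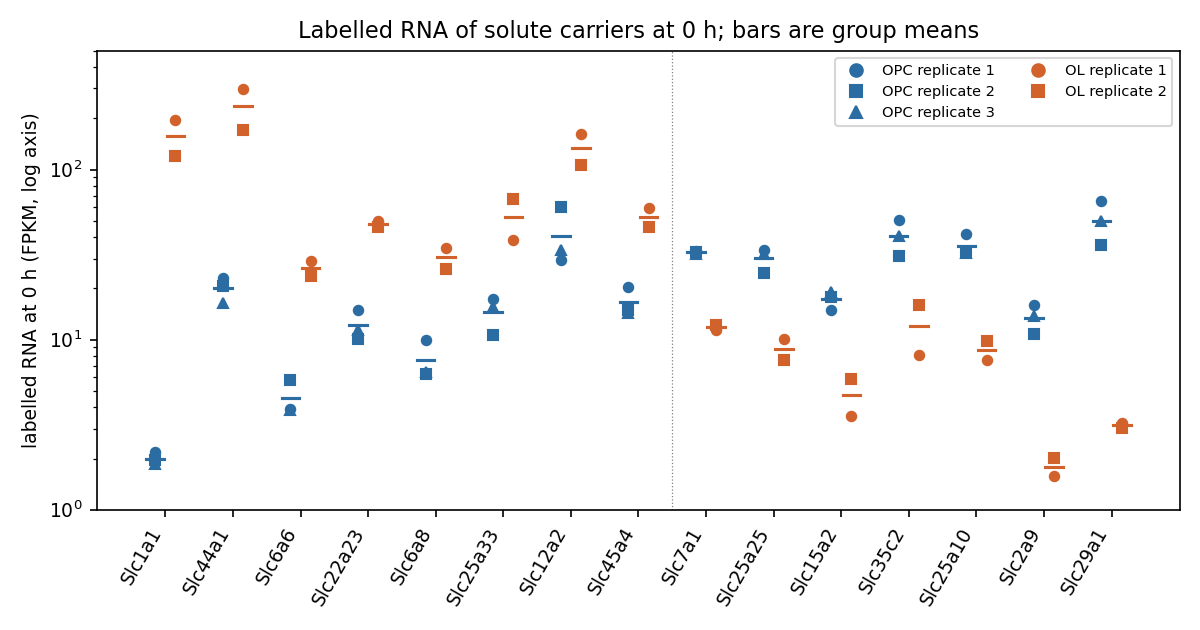
Labelled RNA at 0 h (FPKM, logarithmic axis) of the 8 members with the largest rises, left of the dotted line, and of members with the largest falls in OLs past the threshold. Each point is a replicate (3 OPC in blue, 2 OL in orange) and each bar a group mean; the OPC and OL points do not overlap in any of the genes.

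In the amino acid group, 4 of 16 members were higher in OLs and 4 were lower, and the shares over all transcripts to set beside this and the vitamin group were 14.1% and 17.5%. Slc43a2, a carrier of large neutral amino acids, was at 5.42 to 9.09 FPKM in OPCs and 16.7 to 18.8 FPKM in OLs (1.17 ± 0.29 log2 units, adjusted p = 0.0143, limma). The arginine and lysine carrier Slc7a1 was at 31.8 to 33.3 FPKM in OPCs and 11.5 to 12.2 FPKM in OLs (-1.40 ± 0.21, adjusted p = 0.00121, limma), and the replicates of each cell type lay close together. Slc38a3, a glutamine carrier, was at 68.7 to 103 FPKM in OPCs and 35.3 to 43.4 FPKM in OLs. In the vitamin group 2 of 6 members, the proton-coupled folate transporter Slc46a1 and the riboflavin transporter Slc52a2, were lower in OLs and 0 were higher.

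Among 19 metal carriers 2 were higher in OLs and 0 were lower, where 14.1% and 17.5% of all transcripts were, and the counts of the other groups in this paragraph stand against the same shares. Slc30a4, which loads zinc into vesicles, had 12.6, 14.8 and 12.7 FPKM in the OPC replicates and 29.9 and 26.3 FPKM in the OL replicates (1.02 ± 0.23 log2 units, adjusted p = 0.00943, limma). Slc30a1, the zinc exporter of the plasma membrane, had 15.6 to 20.4 FPKM in OPCs and 25.4 to 34.1 FPKM in OLs (adjusted p = 0.0441, limma). The 14 nucleotide sugar carriers had 0 members higher and 3 lower, of which Slc35c2 changed most, from 50.6, 31.1 and 40.9 FPKM in the OPC replicates to 8.12 and 16.0 FPKM in the OL replicates (-1.72 ± 0.31, adjusted p = 0.00323, limma). The 4 phosphate carriers and the 4 cation exchangers listed for both cell types had 0 calls, of which 1 phosphate and 1 cation exchange member had an unadjusted p under 0.05. Of the 4 choline and lipid carriers Slc44a1 and Slc27a4, a fatty acid transport protein, were higher in OLs and Slc27a1 was lower.

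By place in the cell, 11 of 54 plasma membrane carriers were higher in OLs and 10 were lower, 5 of 46 organelle carriers were higher and 4 lower, and 2 of 27 Slc25 carriers were higher and 6 lower. The median difference was -0.05, 0.07 and -0.04 log2 units in the same order. The share called was 38.9% at the plasma membrane, 19.6% in organelles and 29.6% in the Slc25 family, against 31.6% over all transcripts, and the differences between these shares were not tested. Of the 7 members of unclear place listed for both, 3 were higher and 2 lower, and the 3 genes that are not carriers had 0 calls.

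The Slc25 carriers took a smaller part of the members' labelled RNA in OLs. They made up 38.2%, 33.5% and 35.0% of the members' summed FPKM at 0 h in the 3 OPC replicates against 24.9% and 26.2% in the 2 OL replicates. The larger part of this came from Slc25a5, the ADP/ATP carrier ANT2 (chromosome X, 36795651 to 36798807, plus strand, 4 exons). It had 936, 630 and 721 FPKM in the OPC replicates and 320 and 332 FPKM in the OL replicates (-1.20 ± 0.23 log2 units, adjusted p = 0.00423, limma), the highest level of all members in both cell types. Without Slc25a5 the Slc25 share was 21.4% to 24.6% in OPCs and 19.0% to 20.3% in OLs. Slc25a4, the ADP/ATP carrier ANT1, had 245, 150 and 175 FPKM against 216 and 172 FPKM, and its difference of 0.05 ± 0.23 log2 units was not called (adjusted p = 0.883, limma). The sum of both ADP/ATP carriers was therefore set mainly by Slc25a5 in OPCs. Slc25a5 and Slc25a4 are related paralogs, and how the authors' counting treated reads that fit more than 1 gene is not given in the sources used here, so their split is uncertain.

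The other abundant Slc25 carriers did not move as 1 group. Slc25a39, which brings glutathione into mitochondria, was at 259, 154 and 190 FPKM in the OPC replicates and 91.2 and 101 FPKM in the OL replicates (-1.02 ± 0.23, adjusted p = 0.00903, limma). Slc25a1, the citrate carrier that feeds fatty acid and sterol synthesis, was higher in OLs, with 36, 25 and 35.8 FPKM in the OPC replicates and 53.5 and 57.9 FPKM in the OL replicates (0.79 ± 0.22, adjusted p = 0.0229, limma). Slc25a11, the oxoglutarate carrier, was at 68.1 to 86.1 FPKM and 61.1 to 63.2 FPKM and was not called.

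The Slc25 carriers with the largest differences were less abundant. Slc25a33, a carrier of pyrimidine nucleotides (chromosome 4, 149744036 to 149774277, minus strand, 7 exons), had 17.3, 10.6 and 15.5 FPKM in the OPC replicates and 38.4 and 67.5 FPKM in the OL replicates (1.77 ± 0.30 log2 units, adjusted p = 0.00234, limma). Slc25a10, the dicarboxylate carrier, had 42.1, 32.8 and 32.3 FPKM against 7.60 and 9.81 FPKM (-1.92 ± 0.24, adjusted p = 0.000426, limma). Slc25a25, a calcium-regulated carrier of ATP-magnesium and phosphate (chromosome 2, 32415060 to 32424005, minus strand, 10 exons), had 33.9, 24.5 and 31.8 FPKM against 10 and 7.63 FPKM (-1.66 ± 0.25, adjusted p = 0.0013, limma). Slc25a18, a mitochondrial glutamate carrier known from astrocytes, had 65.5, 41.7 and 67.0 FPKM in the OPC replicates and 17 and 36.7 FPKM in the OL replicates (-1.15 ± 0.33, adjusted p = 0.0257, limma). Its higher OL value was in OL replicate 2, which also had the higher astrocyte marker sum given above. That higher sum came mostly from Gja1, and the part of astrocytes in the Slc25a18 value was not tested.

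The genes that work with these carriers were read from a fixed list. Of 12 genes of the import route for carrier proteins, 11 were listed for both cell types. 1 of them was lower in OLs, the receptor subunit Tomm22, at 167 to 233 FPKM in OPCs and 117 to 135 FPKM in OLs (-0.62 ± 0.20, adjusted p = 0.0385, limma), and 0 were higher. Of the mitochondrial carriers without an Slc symbol Mtch1 and Mtch2 were listed and neither was called, and Ucp2 and Ucp3 were not listed. These small counts stand beside 14.1% of all transcripts higher and 17.5% lower in OLs. Among 9 listed transporters of the inner membrane outside the family, 3 were higher in OLs (both pyruvate carrier subunits, Mpc1 and Mpc2, and the calcium uniporter regulator Micu2) and 1 was lower (Sfxn1, a serine carrier). Sfxn1 was at 49.6 to 57.8 FPKM in OPCs and 22.3 to 24.3 FPKM in OLs (-1.17 ± 0.19, adjusted p = 0.00171, limma). Of 5 listed subunits of the sodium-potassium pump, whose gradient drives many of the plasma membrane carriers, Atp1b1 and Atp1b2 were higher in OLs and 0 were lower. Atp1b2 was at 52.1 to 96.4 FPKM in OPCs and at 129 and 308 FPKM in OL replicates 1 and 2. The higher value was again in the replicate with the higher astrocyte marker sum, and the part of astrocytes in it was not tested. Bsg, the chaperone of monocarboxylate carriers, was at 172 to 215 FPKM in OPCs and 207 to 318 FPKM in OLs and was not called, and its relative Emb was listed for OLs alone.

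27 members were listed for 1 cell type alone, 24 for OLs and 3 for OPCs. These were 14.5% and 1.82% of the members, close to the 15.6% and 3.49% of all transcripts that were listed for OLs or OPCs alone. A transcript was listed only where it passed the authors' minimum at 0 h and was not at 0 early in the chase. The lowest 0 h value of a replicate was 1.004 FPKM in OPCs and 1.002 FPKM in OLs. Listing thus asked for the minimum in 3 OPC replicates but in 2 OL replicates, and these members are described without a test. The highest of them was Slc39a12, a zinc importer, with 17.1 and 65.4 FPKM in OL replicates 1 and 2. Its higher value was again in the replicate with the higher astrocyte marker sum, and the part of astrocytes in it was not tested. Next came Slc31a2, a copper carrier of endosomes, with 12.5 and 19.1 FPKM, and Slc24a3, a potassium-dependent sodium-calcium exchanger, with 14.9 and 15.6 FPKM. The scaffold Slc9a3r2 and the mitochondrial folate and flavin carrier Slc25a32 followed with 9.53 and 11.3 FPKM and 5.36 and 10.6 FPKM. 6 of the 24 members listed for OLs alone were Slc25 carriers, as were 33 of all 165 members. The members listed for OPCs alone were Slc13a3, Slc2a3 and Slc9a5, each at 5.25 FPKM or less.

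The half-life, the time in which labelled RNA falls to 50%, was given by the authors for each replicate, and values over 6 h, the end of the chase, were set to this ceiling. Carriers had longer half-lives in OLs than in OPCs in most cases, as did the other transcripts. Over the 138 members listed for both cell types the median was 2.47, 2.07 and 2.78 h in the 3 OPC replicates against 6 and 5.42 h in the 2 OL replicates. Over all 8112 such transcripts it was 2.35, 2.08 and 2.83 h and 4.54 and 4.44 h. The ceiling held 23.2% to 25.4% of the members in OPCs against 51.4% and 43.5% in OLs, where the shares over all transcripts were 24.5% to 31.6% and 42.3% and 38.8%. In 59 of 138 members both OL half-lives were above every OPC half-life, and in 3 both were below. Over all transcripts these shares were 35.9% and 2.01%.

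The test of log2 half-life per transcript made 0 calls among the 138 members, longer or shorter in OLs (limma with a trend of the spread on the mean, adjusted over 8112 transcripts; background 0% in both directions). At an unadjusted p under 0.05 there were 40 members, 39 of them longer in OLs, and 1898 transcripts in all. The median difference was 0.58 log2 units in the members and 0.37 over all transcripts. The alternatives that set the replicates to a common median or a common decay curve remove a shift shared by all transcripts by their construction. The median difference was then -0.32 and 0 in the members and -0.53 and 0 over all transcripts, and transcripts at the ceiling in every replicate come out shorter in OLs under the first of these because the OL medians are the higher ones, so neither tests the shared shift. Fitted without the trend, a choice made after the data were seen, the test called 4 members, all longer in OLs, against 3.39% of all transcripts. These were Slc23a2, a vitamin C carrier, Slc33a1, which carries acetyl-CoA into the endoplasmic reticulum, Slc35e4 and Slc1a1. Slc23a2 had half-lives of 2.1, 1.96 and 2.07 h in OPCs against 5.17 and 6 h in OLs. Slc33a1 had 1.83, 1.96 and 1.85 h against 4.01 and 5.24 h. The replicates of a cell type lay close together in these genes, but a test of this kind favours genes with a small spread. The 1.96 h of OPC replicate 2 is a value shared by many transcripts, as given below. These calls also depended on single replicates. Slc23a2 and Slc33a1 were called again without either OL replicate and Slc1a1 without OPC replicate 1, but Slc35e4 in none of the 5 fits without a replicate.

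The OPC half-lives also share values. In OPC replicate 2, 40 of 141 members (28.4%) had the same half-life of 1.96 h to within 0.001 h, as did 25.6% of all transcripts, while the share in the members was 0.709% in OPC replicate 1, 4.96% in OPC replicate 3 and 0% and 1.85% in OLs. A half-life of 1.96 h in OPC replicate 2 is therefore a weak measure of order among carriers. 19 members were at the ceiling in all 5 replicates, and 54 were below it in all 5.

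By place in the cell, the plasma membrane carriers had the longest median half-lives of the 3 large groups in the OPC replicates and in OL replicate 2. Over the 54 plasma membrane carriers listed for both cell types the median was 2.90, 2.91 and 4.04 h in OPC replicates 1, 2 and 3 and 6 h in both OL replicates. Over the 46 organelle carriers it was 2.37, 2.07 and 2.67 h in OPCs and 5.09 and 3.97 h in OLs. Over the 27 Slc25 carriers it was 2.15, 2.00 and 2.57 h in OPCs and 6 and 4.71 h in OLs. The order of the organelle and Slc25 carriers depended on which members were counted. Slc25a17, a family member known from peroxisomes, was counted with the organelle carriers, and when it is counted with the Slc25 family instead the median of that family is 2.16, 2.04 and 2.93 h in OPC replicates 1, 2 and 3, the last of these above the organelle value. In OLs the Slc25 medians were the higher in both replicates over members listed for both cell types, but over all members listed for OLs they were 3.87 and 4.01 h against 4.33 and 3.86 h in the organelle carriers. These are descriptions of lists, the differences between them were not tested, and the organelle and Slc25 medians of an OPC replicate lay closer to each other than the lowest and highest OPC replicate of either list did.

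**Figure D2:**
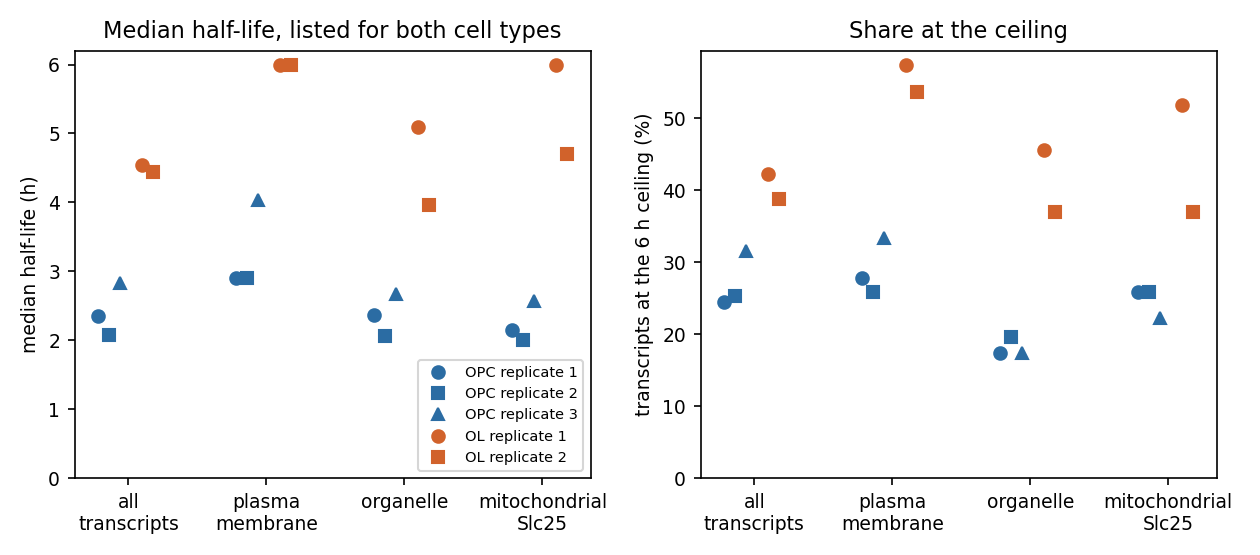
Median half-life (h, left) and share of transcripts at the 6 h ceiling (percent, right) for all transcripts, plasma membrane, organelle and Slc25 carriers listed for both cell types. Each point is a replicate; OL points (orange) are above OPC points (blue) in every list.

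The half-lives of the Slc25 carriers were widely spread, as were those of all transcripts. 6 of the 27 were at the ceiling in all 5 replicates, against 16.1% of all transcripts, namely Slc25a1, Slc25a4, Slc25a5, Slc25a18, Slc25a23 and Slc25a39, and these include Slc25a5, Slc25a4 and Slc25a39, the 3 with the highest mean level at 0 h in both cell types. 13 were below the ceiling in all 5, against 45.5% of all transcripts. Among the shortest medians of all members in OPCs were those of the thiamine transporter Slc19a2, with 0.665, 0.760 and 0.766 h, and of Slc25a29, a carrier of basic amino acids, with 3.39, 0.764 and 0.383 h. The latter shows how far the replicates of 1 gene could lie apart, and its level at 0 h was 4.23 to 6.32 FPKM. The longest medians under the ceiling in OPCs were those of the chloride-bicarbonate exchanger Slc4a3 (4.14, 5.45 and 5.77 h), the glycine transporter Slc6a9 (5.32, 4.03 and 6 h) and Slc35a3, which carries UDP-N-acetylglucosamine (5.44, 2.07 and 5.14 h). In OLs the shortest were Slc36a1, a lysosomal amino acid carrier (0.363 and 1.09 h), Slc16a4 (0.374 and 1.57 h) and Slc25a42, which carries coenzyme A (1.06 and 0.906 h). Among the longest under the ceiling there were Slc39a11 and Slc24a3, each with 1 replicate at 6 h and the other at 5.70 to 5.91 h.

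**Figure D3:**
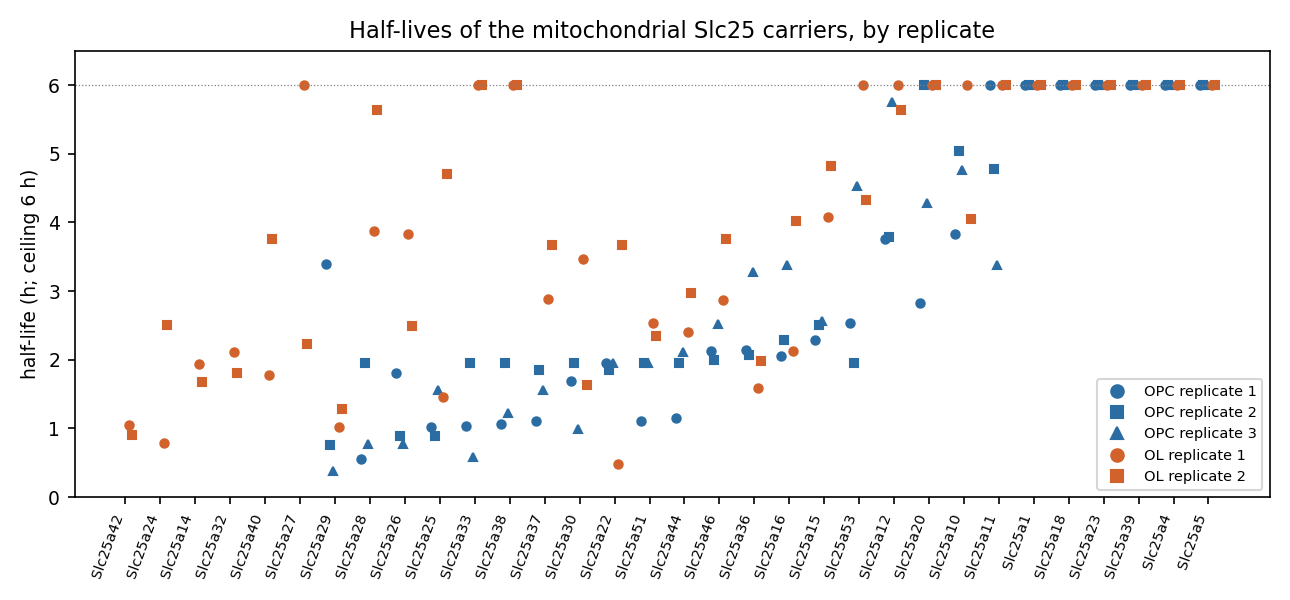
Half-lives (h) of Slc25 carriers, ordered by their median in OPCs, with the 6 not listed for OPCs on the left. Points are replicates (OPC blue, OL orange) and the dotted line is the 6 h ceiling; the 6 carriers on the right are at the ceiling in every replicate.

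The decline was also read from all libraries as a slope of log2(FPKM + 1) per hour of chase, which has no ceiling. The libraries of a replicate entered as separate samples, so the p-values of these slopes measure scatter between libraries, not between replicates. In OPCs 120 of 141 members fell and 4 rose (limma, adjusted p under 0.05), where 81.7% of all transcripts fell and 4.92% rose. In OLs 102 of 162 members fell and 2 rose, against 65.1% and 1.03% of all transcripts. The median slope was -0.36 per hour in the members and -0.38 over all transcripts in OPCs, and -0.18 and -0.20 in OLs. If the 0 h values were scaled as the later ones were, a rise means that the RNA gained on the spike-ins. Rises were called in both cell types for Slc22a17, a lipocalin receptor, and Slc6a11, and in OPCs also for Slc25a5 and Slc25a39. Without OPC replicate 2 or 3 the rises called in OPCs fell from 4 to 2, and without OL replicate 1 those in OLs fell from 2 to 0. Without OPC replicate 1 there were 5 rises in OPCs, and without OL replicate 2 there were 5 in OLs. These counts depend on the spike-in scale. With each chase library set to the median level of its 0 h library, which moves the median slope over all transcripts from -0.38 to -0.02 in OPCs and from -0.20 to 0.01 in OLs, 45 of 141 members rose and 36 fell in OPCs, and 44 of 162 rose and 26 fell in OLs. Over all transcripts 33.5% rose and 24.7% fell in OPCs on that scale, and 27.9% rose and 15% fell in OLs, so the members' shares were again near the background.

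The steepest falls in OPCs were those of Slc25a25 (-0.83 ± 0.07 per hour, SE), the phosphate transporter and retrovirus receptor Slc20a1 (-0.74 ± 0.07) and the zinc transporter of the secretory pathway Slc30a5 (-0.71), followed by Slc25a33 (-0.70 ± 0.07). In OLs the steepest were Slc45a4 (-0.51), Slc35a1, which carries CMP-sialic acid (-0.46), and Slc30a4 (-0.46). Slc25a25 and Slc30a5 hold the heptamer shown above, and Slc20a1, Slc25a33, Slc45a4, Slc35a1 and Slc30a4 do not hold it in their annotated 3′ UTR.

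The difference in slope between the cell types was tested as an interaction of cell type and hours over 25 libraries. The libraries entered without a replicate term, so the p-values measure scatter between libraries, not between the 3 OPC and 2 OL replicates. 44 of 138 members fell less steeply in OLs and 0 fell more steeply (limma, adjusted over 8177 transcripts; 65 differed at an unadjusted p under 0.05), where 27.5% of all transcripts fell less steeply and 0.232% more steeply. The median difference was 0.18 per hour in the members and 0.14 over all transcripts. By place, 16 of 54 plasma membrane, 19 of 46 organelle and 5 of 27 Slc25 carriers were called, with median differences of 0.17, 0.20 and 0.13 per hour. The count of members fell to 19 without OPC replicate 2, to 14 without OL replicate 1 and to 15 without OL replicate 2, and all of these were among the 44. Over all transcripts the share less steep in OLs fell from 27.5% to 15.8%, 8.33% and 10.3% in the same fits. With each chase library set to its 0 h median, 13 of 138 members fell less steeply in OLs and 23 more steeply, beside 8.78% and 21.4% of all transcripts, so the sign of the difference depends on the scale for many members as it does for transcripts in general. The rescaling shifts all transcripts of a library together and moved the median difference over all transcripts from 0.14 to -0.03 per hour. 11 of the 44 members were still called less steep under it.

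The members with the largest differences in slope were named after their values were seen, and all 8 were still called less steep with the chase set to the 0 h median. Leaving out single replicates, 6 of them were called in each of the 5 fits, while Slc25a28 was lost without OL replicate 1 and Slc33a1 without OL replicate 2. The size of these differences depended on the pseudocount, since low levels and 0 weigh more on a log scale with a smaller one. With a pseudocount of 0.1 all 8 were still called, at 1.15 per hour in Slc25a33, 0.99 in Slc25a28, 0.89 in Slc11a2, 0.80 in Slc25a38, 0.78 in Slc25a25, 0.68 in Slc20a1, 0.66 in Slc33a1 and 0.55 in Slc20a2. At 6 h 15.7%, 21.6% and 16.4% of all listed transcripts were at 0 in OPCs against 4.08% and 0.790% in OLs, and the part of these zeros in the differences was not tested. Slc25a33 fell by 0.70 per hour in OPCs and by 0.15 per hour in OLs, a difference of 0.55 ± 0.11 (adjusted p = 0.000785, limma). Its labelled RNA at 4 h was 6.52% of the 0 h level in OPC replicate 1 and listed at 0 in OPC replicates 2 and 3, but 120% and 88.3% in the OL pair. By 6 h the gene was listed at 0 in all 3 OPC replicates and was 35.3% and 60.5% in the OL replicates. It was also higher in OLs at 0 h, as given above, so this carrier had both more labelled RNA and a slower decline in OLs.

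Slc25a25 differed by 0.52 ± 0.11 per hour (adjusted p = 0.00114, limma), with less labelled RNA in OLs at 0 h. At 2 h it stood at 16.2%, 20.9% and 41.2% of its 0 h level in OPC replicates 1, 2 and 3 and at 51% and 122% in OL replicates 1 and 2. The OL replicates were far apart in this gene, with 180% of the 0 h level at 1 h in OL replicate 2 and 55.4% in OL replicate 1, and half-lives of 1.46 and 4.71 h. The steeper fall in OPCs therefore did not come with half-lives that were apart between the cell types, since OL replicate 1 lay among the OPC values of 1.02, 0.886 and 1.56 h.

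The phosphate importers of the plasma membrane, Slc20a1 and Slc20a2, both differed. Slc20a1 fell by 0.74 per hour in OPCs and by 0.22 per hour in OLs (difference 0.52 ± 0.09, adjusted p = 0.000454, limma), with half-lives of 1.23, 1.96 and 1.86 h in OPCs against 4.44 and 4.36 h in OLs. At 6 h 1.51%, 2.44% and 4.55% of its 0 h level were left in OPCs and 39.2% and 30.4% in OLs. The half-lives of Slc20a2 were 3.23, 1.96 and 3.8 h against 6 h in both OL replicates. Slc20a2 differed by 0.48 ± 0.10 per hour (adjusted p = 0.000922, limma), with 13.8%, 1.92% and 16.4% left at 6 h in OPCs and 78.7% and 71.0% in OLs. Neither differed between the cell types at 0 h past the threshold, with differences of -0.55 and -0.11 log2 units. Without OPC replicate 1 that of Slc20a1 was -0.64 and was called. The half-lives and the 6 h levels of the OPC and OL replicates did not overlap in either gene. Longer half-lives in OLs without overlap were found in 42.8% of the members and 35.9% of all transcripts. Both genes were picked by slopes from the same libraries.

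The other 4 were Slc11a2, the divalent metal transporter that moves iron (0.46 per hour), the mitochondrial carriers Slc25a28, which moves iron (0.46), and Slc25a38, which moves glycine for heme synthesis (0.45), and Slc33a1 (0.43). Slc11a2 had half-lives of 1.85, 1.55 and 1.12 h in OPCs against 6 and 3.20 h in OLs. Slc25a28 had 0.551, 1.96 and 0.774 h against 3.87 and 5.63 h, and Slc25a38 had 1.06, 1.96 and 1.22 h against 6 h in both OL replicates. In each of the 3 the lowest OL half-life was above the highest OPC half-life, as in 42.8% of the members and 35.9% of all transcripts. These half-lives come from the same libraries as the slopes by which the genes were picked. Among the partner genes, 4 of 11 listed import genes (Timm29, Timm8a1, Tomm20 and Tomm40) fell less steeply in OLs and 0 more steeply, beside the 27.5% of all transcripts.

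In some carriers that changed most in level the difference in slope was not called. Slc44a1 stayed near its 0 h level, at 76.4%, 73.6% and 126% at 6 h in OPCs against 136% and 91.2% in OLs, with half-lives at the ceiling throughout, and its slopes differed by 0.06 ± 0.07 per hour (adjusted p = 0.571, limma). Slc29a1 differed by -0.07 per hour (adjusted p = 0.581, limma), and Slc30a4 fell by 0.41 per hour in OPCs and by 0.46 per hour in OLs (adjusted p = 0.705, limma). With the chase set to the 0 h median both were called steeper in OLs, with differences of -0.50 per hour in Slc29a1 and -0.26 per hour in Slc30a4. Slc1a1 also fell at like rates, with slopes of -0.28 and -0.33 per hour, but its OPC level is so low that the pseudocount of 1 flattens its slope, and with a pseudocount of 0.1 the difference became 0.39 per hour less steep in OLs. Slc29a1 is likewise low in OLs, and with a pseudocount of 0.1 its difference was -0.33 per hour and was not called.

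**Figure D4:**
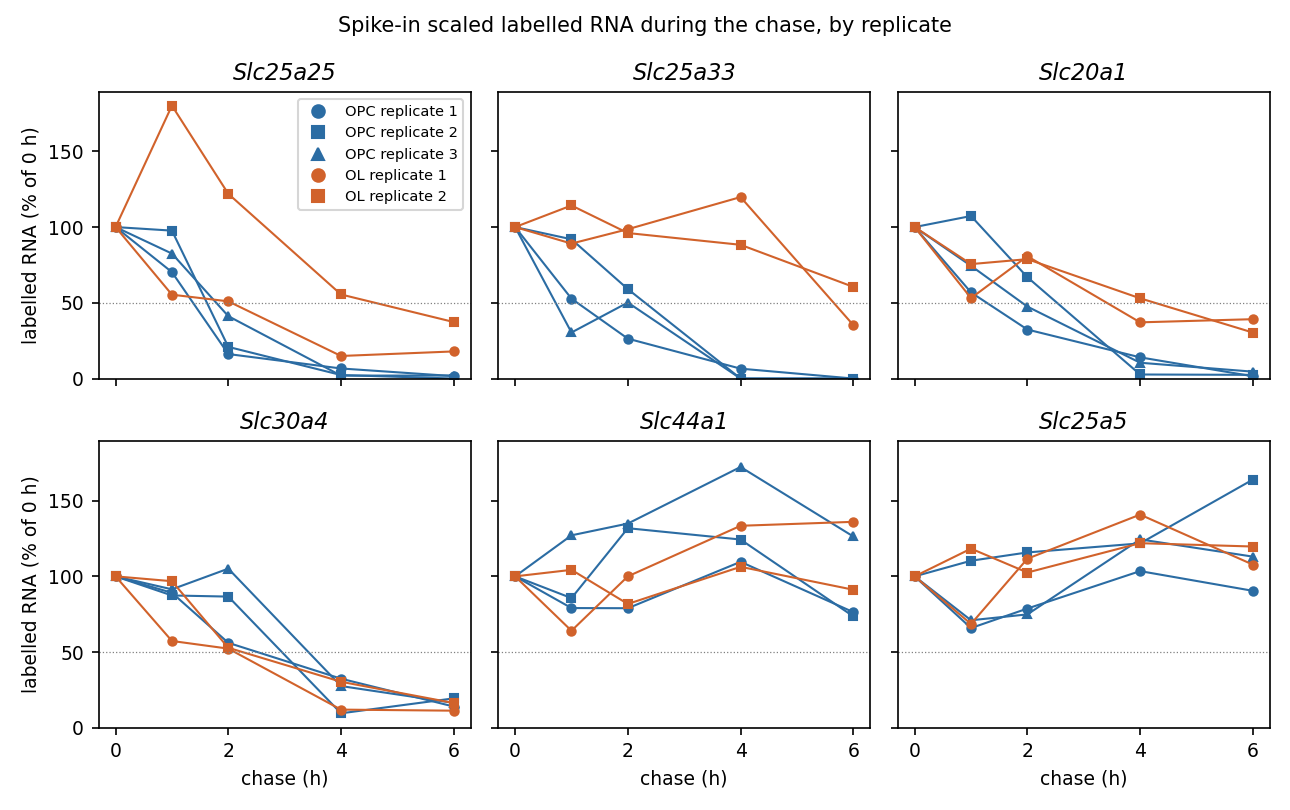
Labelled RNA as a percentage of its 0 h level against hours of chase in 6 members, 1 line for each replicate (OPC blue, OL orange) and a dotted line at 50%. Slc25a33 and Slc20a1 fall to under 5% by 6 h in the OPC replicates and stay at 30.4% or more in the OL replicates, while Slc44a1 and Slc25a5 stay near or above their 0 h level in both.

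**Figure D5:**
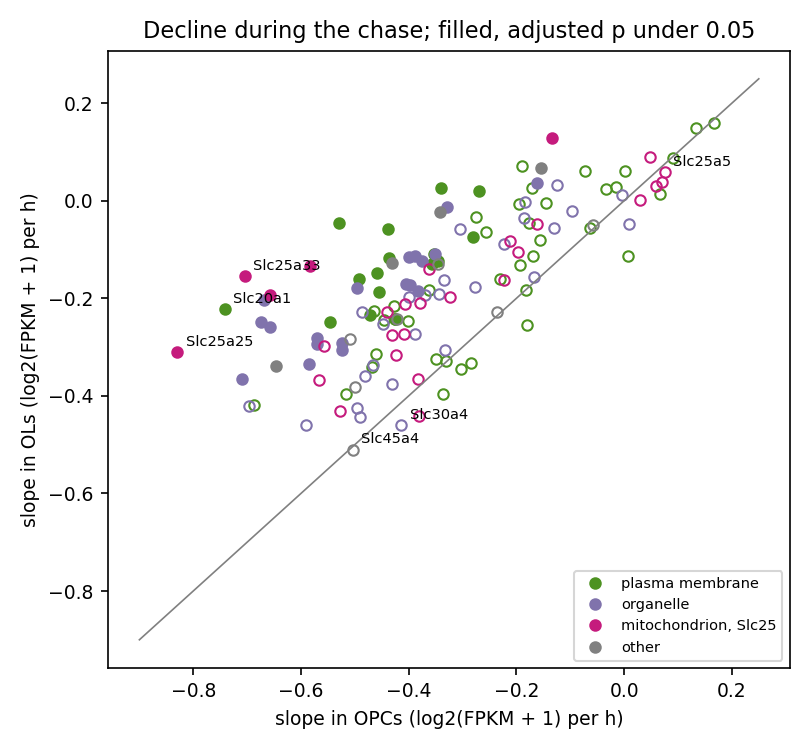
Slope of log2(FPKM + 1) per hour of chase in OLs against that in OPCs for the 138 members listed for both, coloured by place in the cell, with the line of equal slopes. Filled points have an adjusted p under 0.05 for the difference; all 44 lie above the line.

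The coding sequences of the groups differed in ways that the choice of members did not use. Over the members the median share of UUU among phenylalanine codons was 38.5% and that of AAA among lysine codons 34.8%, against 44.4% and 37.5% over 10090 transcripts. The plasma membrane carriers had 36.1% and 31.4%, the organelle carriers 42.5% and 36.6% and the Slc25 carriers 36.4% and 35.3%. The share of G or C at the third codon position was 67.2%, 64.3% and 62.1% in the same order and 60.6% over all transcripts. The Slc25 carriers had the shortest coding sequences, with a median of 954 bases against 1874 and 1301 bases in the plasma membrane and organelle carriers, and 45.5% of them held the heptamer in the 3′ UTR against 35.0% and 29.6%. These are descriptions over genes, which are not independent replicates, and no test was made on them.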

How the data were processed

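The members and lists were chosen with earlier results of these data known. The authors clipped adapters, aligned reads to GRCm38 with HISAT2 2.1.0, and tabulated FPKM with StringTie 1.3.5 over canonical coding transcripts of GENCODE. The deposited FPKM were scaled by the authors to the share of reads from LYSa and luciferase spike-ins. The methods describe this for each time point, but the 0 h values keep the decimals of StringTie output while later ones do not, so whether 0 h was scaled too is uncertain. By the authors' filter, transcripts under 1 FPKM at 0 h, or at 0 at 1 and 2 h, were removed. The deposited half-lives are from an exponential decay fitted by least absolute deviations, and those over 6 h were set here to 6 h. Whether counting used strand is not given in the sources used here, so overlapping genes cannot be told apart.

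The groups were read from the labels. Levels at 0 h, slopes and their interaction were tested with limma 3.58.1 (R 4.3.3) on log2(FPKM + 1) with a trend of the spread on the mean, and half-lives on log2 hours, with Benjamini-Hochberg adjustment over all transcripts and calls at an adjusted p under 0.05. The fits and the half-life refit were checked on simulated data. The replicates are described as biological by the study. With 3 replicates against 2, an exact permutation test of 1 value cannot go below 0.1, so none was used.

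Genes were named by rule, the 8 largest rises and falls at 0 h, the highest levels, the extreme half-lives and the leading member of each substrate group, and others are named where a count is small. A few genes that the rule picks are not reported here. The sites, substrate groups, partner genes and markers are lists from textbook knowledge, and places for Slc49a4, Slc7a6os and Slc4a1ap were added after the tables were read. Sequences and coordinates come from GENCODE M21 (GRCm38). Alternatives were another pseudocount, a filter at a mean of 5 FPKM, other scalings, the replicate number as a block, and leaving out each replicate.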

Additional observations from a re-analysis of the deposited data

Results flagged for a closer look

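Of the 44 members whose decline was called less steep in OLs, 10 had been picked by the naming rule or for the size of this difference. In these the slope during the chase differed between OLs and OPCs by the interaction test, with an adjusted p under 0.05 (limma). In each the decline was less steep in OLs. The differences, in log2(FPKM + 1) per hour, were 0.55 in Slc25a33, 0.52 in Slc20a1, 0.52 in Slc25a25, 0.48 in Slc20a2, 0.46 in Slc11a2, 0.46 in Slc25a28, 0.45 in Slc25a38, 0.43 in Slc33a1, 0.26 in Slc25a18 and 0.24 in Slc35c2. The first 8 of these were named for that size. Slc12a4, Slc23a2, Slc27a1, Slc2a8, Slc30a5, Slc38a3, Slc43a2 and the scaffold Slc9a3r1, named in the report for other values, were also among the 44. With each chase library set to its 0 h median, Slc25a18 was no longer called and Slc35c2 changed sign. Slc25a18 was also not called without OPC replicate 1, OPC replicate 2 or OL replicate 1, and Slc35c2 not without OPC replicate 1, OPC replicate 2 or either OL replicate, nor with a pseudocount of 0.1.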

How the results depend on the processing

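Depth behind the values is unknown. The spread at 0 h and for half-life rests on 3 and 2 replicates, and that of the slopes on the scatter between libraries. Leaving out a replicate gave 17 to 46 members called at 0 h, 0 to 1 for half-life and 14 to 44 for the difference in slope, and with 0 h libraries scaled to a common median 18 were higher and 23 lower. The half-life test depended most on its settings. It made 0 calls as planned, 47 with each replicate centred on its median (42 of them shorter in OLs, beside 75 longer and 2627 shorter over all 8112 transcripts), 6 when refitted on 1 mean decay curve (5 shorter, beside 24 longer and 237 shorter over all), 4 in hours without a log (all longer, beside 227 longer and 10 shorter over all), 11 of 54 members without transcripts at the ceiling (all longer, beside 435 longer and 6 shorter of 3692 transcripts) and 0 when refitted without the 6 h libraries. Without a trend of the spread it made 4 calls, and 2 to 5 when a replicate was also left out; over all transcripts that fit called 275 longer and 12 shorter in OLs. A pseudocount of 0.1 raised the members less steep in OLs from 44 to 60, while the share over all transcripts rose from 27.5% to 33.2%. The same pseudocount turned the difference of Slc1a1 to 0.39 per hour. With each chase library set to its 0 h median, 81 members changed in OPCs instead of 124 and 70 instead of 104 in OLs, and the difference in slope changed sign, with a call on 1 of both scales, in Slc35c2 (-0.017), which had been called before, and in Slc25a4 (-0.22), Slc2a9 (-0.32) and Slc6a11 (-0.25), which were called after. Other named members, among them Slc1a1, Slc44a1 and Slc25a10, changed sign without a call on either scale. Slc25a1 (-0.29), Slc25a39 (-0.30), Slc25a5 (-0.28), Slc29a1 (-0.50) and Slc30a4 (-0.26) kept their sign and were called steeper in OLs on that scale alone. The cause of these changes was not tested.

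With the replicate number as a block, the counts were 37 at 0 h, 0 for half-life, 126 and 111 for the decline in OPCs and OLs and 48 for the difference in slope. At 0 h 34 of the 43 calls remained, and Slc30a1, Slc12a4, Slc27a4, Slc52a2 and Slc33a1 were among those not called under the block. The OLs match a pair of the OPC replicates, but the sources do not say which, and deviations of same-numbered replicates correlated at 0.059 and 0.010 at 0 h and at -0.0016 and -0.105 for half-life, so the numbers were not taken as pairs.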
